A study of Mus musculus with 2 samples.

Results

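Among the 31017 gene symbols counted in CD8 T cells of mouse spleen, 83 belong to the heat shock and chaperonin families described here. They were chosen by name alone, as every symbol that begins with Hspa, Hspb, Hspd, Hspe, Hsph, Hsp90, Dnaja, Dnajb or Dnajc, or with Cct and a digit, together with Tcp1. The set held 14 genes of the Hsp70 and Hsp110 families, 3 Hsp90 genes, Hspd1 and Hspe1, 45 J-domain genes, 9 genes of the CCT family and 10 genes with an Hspb name. Of the 83, 73 had at least 1 molecule counted, 66 had at least 50 and 10 had none (Dnajb7, Dnajb8, Dnajc22, Dnajc5b, Dnajc5g, Hspa12a, Hspa12b, Hspb3, Hspb7 and Hspb8). The CCT subunit gene Cct6a was not analysed here.

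The cells came from a transfer experiment in wild-type (wt) mice. Total CD8 T cells of young CD45.1 mice, over 95% pure by the labels, were given to old CD45.2 C57BL/6J recipients; the labels give 3 and 24 months as the ages of the mice. The spleen was taken 1 month later, when the host was 25 months old, and viable CD3e+CD8a+ cells were sorted by CD45 allele. The old recipient library holds the host's own CD45.2+ cells, and the young donor library holds the CD45.1+ cells that had spent that month in the old host. Each is 1 single-cell library; the labels do not say whether it came from 1 mouse or several, and no untransferred young cells were analysed here. Age, the transfer and the library cannot be told apart in this design. With 1 library a group no test between groups is possible: levels are summed molecule counts (UMIs) given as CPM, the count per 1000000 UMIs of those cells, and the 95% intervals cover counting error only.

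Chaperones bind unfolded proteins and keep them from aggregating. Hsp70 proteins cycle between binding and release with ATP; J-domain proteins bring substrates to them, nucleotide exchange factors reset them, and Hsp90 takes over partly folded clients such as kinases and steroid receptors. The CCT ring, whose subunits include Tcp1, folds actin and tubulin in the cytosol, and the Hspd1 and Hspe1 proteins form a chamber of the same kind in mitochondria. Hspa5 (BiP) and Hsp90b1 (Grp94) do this work in the endoplasmic reticulum (ER), where the unfolded protein response raises them, whereas heat shock factor drives the cytosolic stress genes through heat shock elements.

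The sorted cells carried the markers of their label: Cd3e, Cd3d, Cd8a and Cd8b1 summed to 4102 CPM in old recipient cells and 3849 CPM in young donor cells, and Cd4 was at 0 and 0.0520 CPM. After filtering, 5341 old recipient and 7451 young donor cells remained, with a median of 6935 and 7801 UMIs. The libraries shared 105 barcodes. Cells were placed in 4 groups by genes outside the chaperone families, and 692 old recipient and 511 young donor cells fell in none of them. Cycling cells had at least 1 UMI of the proliferation gene Mki67 (107 old recipient and 108 young donor cells). Of these, 71 and 65 had exactly 1 such UMI, and the cycling cells had a median of 8108 and 9005.5 UMIs in all. Gzmk cells had at least 2 UMIs of granzyme K and were not cycling cells (986 and 1065). Ly6c2 cells had at least 2 UMIs of that memory-type surface gene and were neither cycling nor Gzmk cells (2139 and 5015). Naive-type cells had no UMI of any of these genes, at most 1 of Ccl5 and at least 1 of naive T cell markers such as Ccr7 and Lef1 (1417 and 752). The Gzmk cells were the shallowest, with a median of 4489 UMIs in the old recipient and 4454 in the young donor library, against 7051 and 7495.5 in naive-type cells.

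The chaperone genes as a whole held a nearly constant share of all UMIs in both libraries and, apart from cycling cells, in the cell groups. Their 703139 UMIs came to 7277 CPM in old recipient and 7417 CPM in young donor cells. Cycling cells had the most, with 9155 CPM in the old recipient and 9059 CPM in the young donor library, against 7258 and 7305 CPM in naive-type cells. Gzmk cells, at 7334 and 7482 CPM, and Ly6c2 cells, at 7186 and 7387 CPM, lay close to the naive-type cells of the same library. This closeness holds for sums on total UMIs. Under trimmed-mean (TMM) scaling, described below, the Gzmk over naive-type ratio of each gene family was negative, while that of the ER members stayed positive. In cycling cells each family ratio was lower than on total UMIs. The sum over all members is not given under TMM scaling. Below the sums on total UMIs, single genes differed more. Hspa5 and Hsp90b1 of the ER were higher in Gzmk cells, and Hsp90b1 and the cytosolic Hsp90aa1 were higher in cycling cells. Hspbp1 and the mitochondrial Dnajc15 were lower in Gzmk cells.

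Gene coordinates are those of GENCODE M21 on GRCm38. A gene was called between cell groups when its CPM was past 1.5-fold the same way in both libraries, with at least 50 UMIs over the sums compared. In Gzmk over naive-type cells, 11 of 57 members were called higher, against 19.6% of all genes tested. In the same comparison 3 members were called lower (Hspbp1, Dnajc15 and Dnajb14), against 5.35% of all genes. In cycling over naive-type cells, 7 of 50 members were called higher, against 16% of all genes, and none was called lower, against 4.1%. In Ly6c2 over naive-type cells none of 59 was called higher, against 4.25% of all genes, and 1 was called lower (Hspb11), against 2.14%. These shares are near those of all genes, so the counts do not set the chaperones apart as a family.

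Scaling bears on these ratios. The median gene was 0.31 higher in Gzmk than in naive-type cells on the log2 scale in both libraries, and 0.27 and 0.21 higher in cycling cells in the old recipient and young donor libraries. Ribosomal protein genes took 27.8% and 29.7% of UMIs in Gzmk cells and 27.8% and 31.4% in cycling cells, against 43.3% and 43.8% in naive-type cells. The median member was 0.20 and 0.16 higher in Gzmk cells, below the median gene. With trimmed-mean (TMM) scaling, which centres on the typical gene, 5 of the 11 Gzmk calls remained (Hsp90b1, Dnajc9, Hsph1, Hspa4l and Dnajb13), against 9.19% of all genes, and 3 of the 7 cycling calls did (Hsp90b1, Hsp90aa1 and Dnajc9), against 8.02%. On totals that leave out ribosomal protein and other large gene families, Dnajc9 was no longer called in Gzmk cells either.

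**Figure D1:**
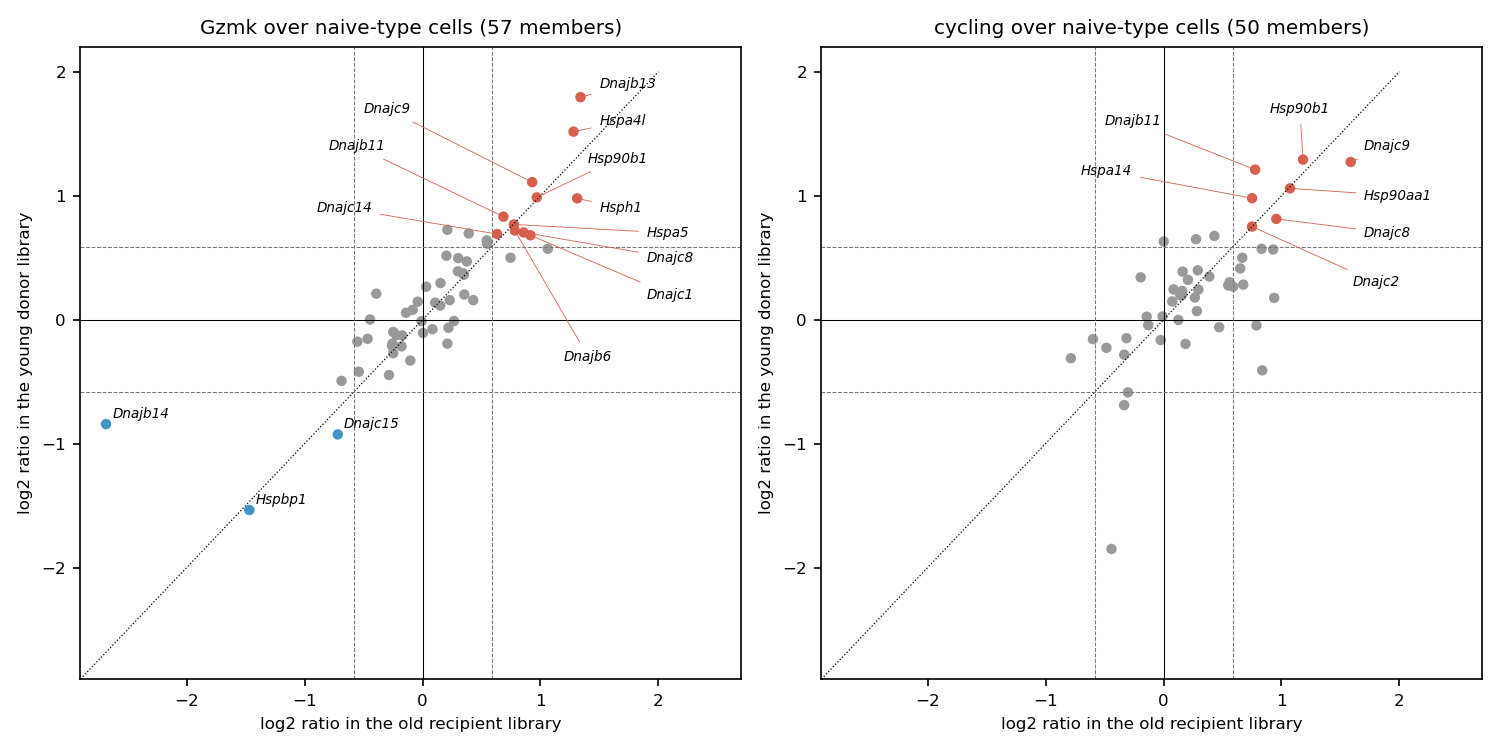
Log2 ratio of CPM in Gzmk cells (left, 57 members) and cycling cells (right, 50 members) over naive-type cells, in the old recipient library on the x axis and the young donor library on the y axis. Dashed lines mark 1.5-fold; red and blue points are the members called higher and lower, and most points lie near the dotted diagonal of equal ratios.

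Of the 8 ER members, 4 were called higher in Gzmk cells (Hspa5, Hsp90b1, Dnajb11 and Dnajc1), against 19.6% of all genes. Hsp90b1 and Dnajb11 were called higher in cycling cells, against 16% of all genes. The ER set was put together with earlier results known, and under TMM scaling only Hsp90b1 of the 4 Gzmk calls remained. Hspa5, the ER Hsp70 (BiP), had 242 and 235 CPM in old recipient and young donor Gzmk cells, against 141 and 138 CPM in naive-type cells. That is a log2 ratio of 0.77 in each library (0.66 to 0.89 for old recipient cells, 0.64 to 0.90 for young donor cells). Hsp90b1, the ER Hsp90 (Grp94), had 275 and 259 CPM in Gzmk cells, against 140 and 131 CPM in naive-type cells, a log2 ratio of 0.97 (0.86 to 1.08) and 0.99 (0.85 to 1.12). Both genes were therefore higher in Gzmk cells to the same degree in host and transferred cells, and of these only Hsp90b1 stayed past 1.5-fold under TMM scaling. Cycling cells had 319 and 320 CPM of Hsp90b1, a log2 ratio of 1.18 and 1.29 over naive-type cells, and 222 and 184 CPM of Hspa5, a ratio of 0.65 and 0.41 that was not called. Ly6c2 cells had 129 and 120 CPM of Hspa5 and 139 CPM of Hsp90b1 in each library, close to naive-type cells.

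The promoters of these genes are shown because the letters of the ER stress element, which is bound by ATF6 when NF-Y holds its CCAAT end, are in them. The motif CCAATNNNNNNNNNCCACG was searched on both strands in the 250 bases before each start site. It was present in 37 of 32851 windows (0.113%), in 35 of 27025 genes (0.13%) and in 3 of the 68 members with a window: Hspa5, Hsp90b1 and Dnajc3. The sequences are from RefSeq on GRCm38.p6, 5′ to 3′ on the gene's strand, with the motif in capitals; a match is one of letters only. The Hspa5 window is chr2:34771840-34772089 on the + strand, that of Hsp90b1 is chr10:86705445-86705694 on the - strand, with 1 match on each strand, and that of Dnajc3 is chr14:118937682-118937931 on the + strand.
Hspa5: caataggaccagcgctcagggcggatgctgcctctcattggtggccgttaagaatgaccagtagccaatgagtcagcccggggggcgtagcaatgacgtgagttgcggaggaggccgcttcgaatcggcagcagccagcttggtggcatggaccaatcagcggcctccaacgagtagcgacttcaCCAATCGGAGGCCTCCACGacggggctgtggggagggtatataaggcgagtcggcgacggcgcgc
Hsp90b1: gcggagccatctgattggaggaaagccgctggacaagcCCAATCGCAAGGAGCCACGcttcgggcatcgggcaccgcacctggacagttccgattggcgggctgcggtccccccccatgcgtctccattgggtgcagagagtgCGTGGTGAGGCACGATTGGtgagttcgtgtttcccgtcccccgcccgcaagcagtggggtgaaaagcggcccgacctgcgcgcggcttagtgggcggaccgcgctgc
Dnajc3: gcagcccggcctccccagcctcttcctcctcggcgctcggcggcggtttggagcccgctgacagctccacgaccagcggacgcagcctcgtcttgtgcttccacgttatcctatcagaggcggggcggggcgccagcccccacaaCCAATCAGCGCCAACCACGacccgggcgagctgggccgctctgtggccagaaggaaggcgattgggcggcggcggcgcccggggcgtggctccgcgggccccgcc

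The J-domain partners of BiP did not all follow it. Dnajb11 (ERdj3), which hands unfolded substrates to BiP, had 90.9 and 83.4 CPM in Gzmk cells, against 56.5 and 46.9 CPM in naive-type cells, a log2 ratio of 0.69 and 0.83. Dnajc1, a J-domain protein of the ER membrane, had 71.8 and 57.7 CPM in Gzmk cells, against 38.1 and 36.0 CPM in naive-type cells, a ratio of 0.91 and 0.68. Dnajc3 (p58IPK), a cochaperone of BiP in the ER lumen that also carries the motif, had 153 and 142 CPM in Gzmk cells, against 118 and 103 CPM in naive-type cells; its ratio of 0.38 and 0.47 was not called. Dnajb11 was also called higher in cycling cells, at 0.78 and 1.21, where it had 96.9 and 109 CPM. Dnajb9 (ERdj4), another target of the unfolded protein response, had 23.3 and 22.4 CPM in Gzmk cells and 14.5 and 22.6 CPM in cycling cells, against 25.0 and 28.1 CPM in naive-type cells, so it was at or below the naive-type level. Dnajc10 (ERdj5), a disulfide reductase, had 30.7 and 28.9 CPM in Gzmk cells, against 25.5 and 29.2 CPM in naive-type cells.

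The 8 members that act in the ER lumen (Hspa5, Hsp90b1, Dnajb9, Dnajb11, Dnajc1, Dnajc3, Dnajc10 and Hspa13) summed to 895 and 835 CPM in Gzmk cells and to 869 and 835 CPM in cycling cells, against 549 and 516 CPM in naive-type cells. The Gzmk ratio was 0.70 in each library, and 0.38 and 0.37 under TMM scaling. Ly6c2 cells had 512 and 496 CPM, a log2 ratio of -0.10 and -0.06. Among 20 other genes of ER folding and the unfolded protein response, 5 were called higher in Gzmk cells (Pdia6, Sdf2l1, Xbp1, Atf6 and Ddit3), near the 19.6% of all genes, and none lower. Xbp1, a transcription factor of that response, had 46.6 and 43.5 CPM in Gzmk cells, a log2 ratio of 1.22 and 1.27 over naive-type cells. Sdf2l1, an ER stress-induced partner of the J-domain proteins, had 47.5 and 53.3 CPM in Gzmk cells and 94.9 and 72.7 CPM in cycling cells, against 21.4 and 17.7 CPM in naive-type cells. In cycling cells 4 of 19 were called higher (Pdia3, P4hb, Sdf2l1 and Creld2), near the 16% of all genes, and none lower. The median log2 ratio of the list was 0.45 in Gzmk and 0.42 in cycling cells, where the median over all genes was 0.32 and 0.23.

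**Figure D2:**
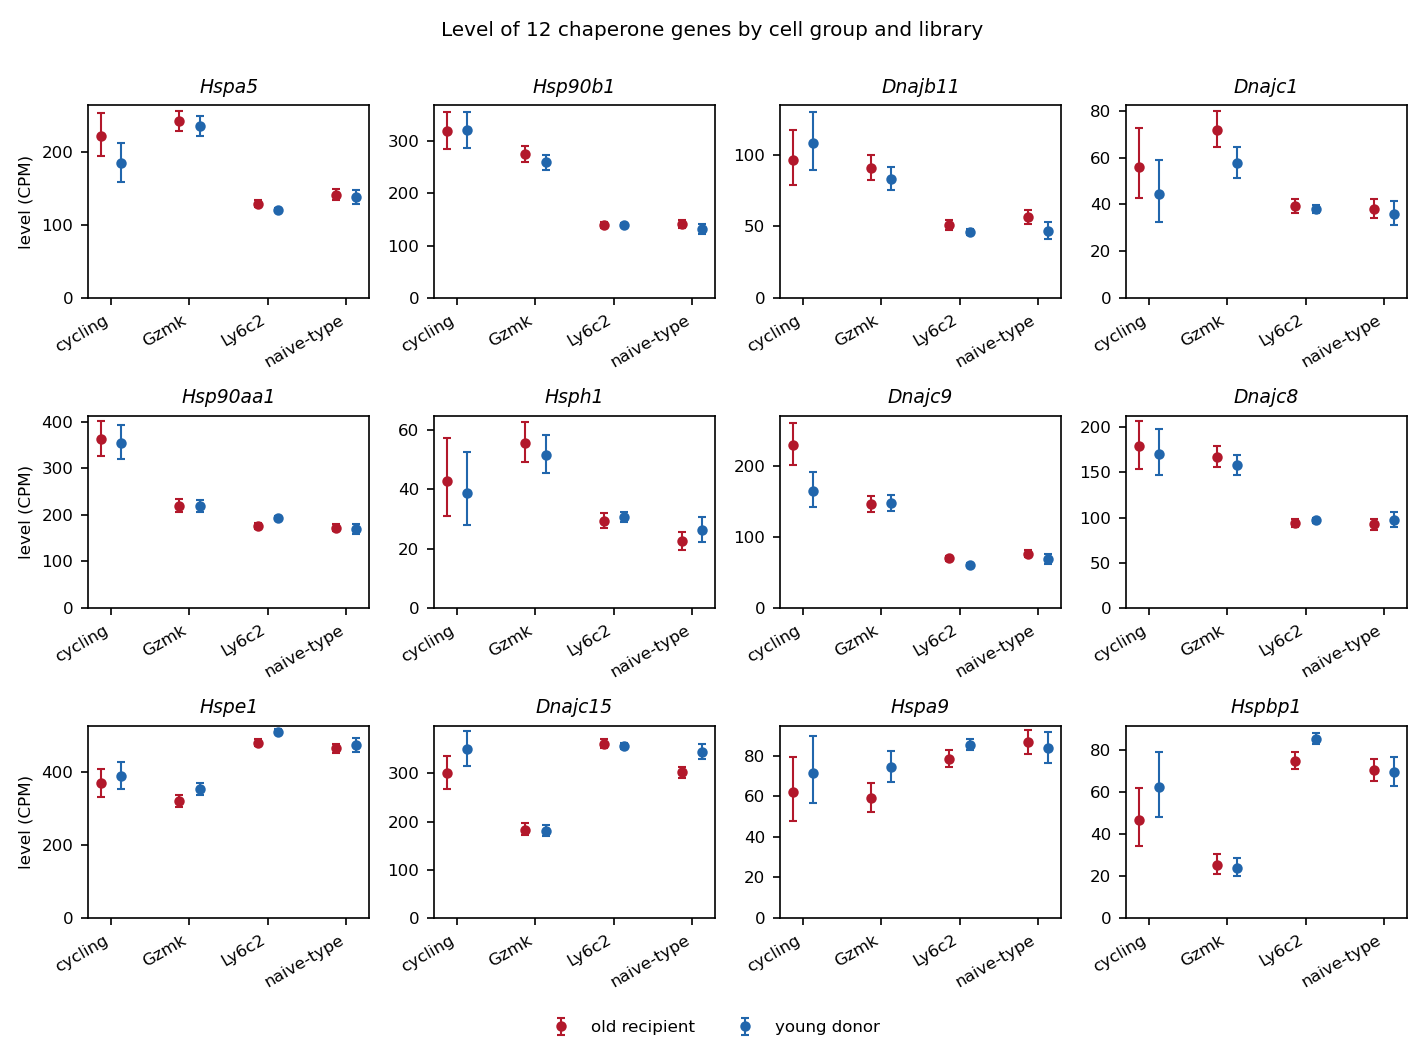
Level (CPM) of 12 chaperone genes in cycling, Gzmk, Ly6c2 and naive-type cells of the old recipient (red) and young donor (blue) libraries. Points are sums over the cells of 1 group and bars are exact Poisson 95% intervals; Hspa5 and Hsp90b1 are high in cycling and Gzmk cells, while Dnajc15 and Hspbp1 are low in Gzmk cells.

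In the cytosol the Hsp90 genes parted by isoform. Hsp90aa1 (chr12:110690605-110702728 on the - strand), the stress-inducible isoform, had 363 and 355 CPM in cycling cells of the old recipient and young donor, against 173 and 170 CPM in naive-type cells. Its log2 ratio was 1.07 (0.91 to 1.23) and 1.06 (0.88 to 1.23), about the same in both libraries, and Gzmk cells, at 220 and 219 CPM, lay in between. Hsp90ab1, the constitutive isoform, had 1702 and 1714 CPM in cycling cells and 1162 and 1266 CPM in Gzmk cells, against 1387 and 1448 CPM in naive-type cells. Its ratio was 0.30 and 0.24 in cycling cells and -0.26 and -0.19 in Gzmk cells. Hspa8 (Hsc70), the constitutive cytosolic Hsp70 and the member with the most UMIs, had 1930 and 1916 CPM in cycling cells, against 1474 and 1505 CPM in naive-type cells, and Gzmk cells were level with these at 1465 and 1492 CPM. Hspa8 and Hsp90ab1 alone made up 40.1% of the members' UMIs, so the family sums follow them.

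Of the Hsp110 proteins, which reset Hsp70 by nucleotide exchange, Hsph1 and Hspa4l were called higher in Gzmk cells. Hsph1 had 55.5 and 51.5 CPM in Gzmk cells, against 22.4 and 26.1 CPM in naive-type cells, a log2 ratio of 1.31 (1.05 to 1.57) and 0.98 (0.68 to 1.28). Hspa4l had 16.1 and 15.4 CPM in Gzmk cells, against 6.63 and 5.37 CPM in naive-type cells, a ratio of 1.28 and 1.52. Hspa4, of the same family, had 121 and 119 CPM in Gzmk cells, against 109 and 96.7 CPM in naive-type cells, and was not called. Hspbp1, which also promotes nucleotide exchange on Hsp70, went the other way. It had 25.4 and 24.0 CPM in Gzmk cells, against 70.4 and 69.5 CPM in naive-type cells, a ratio of -1.47 (-1.76 to -1.19) and -1.54 (-1.84 to -1.24), and Ly6c2 cells had 74.9 and 85.4 CPM. Gzmk cells were thus the low group for Hspbp1 (chr7:4660521-4685068 on the - strand), the only member past 2-fold lower in both libraries.

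Hspa14, which works at the ribosome together with the J-domain protein Dnajc2, had 52.3 and 51.9 CPM in cycling cells, against 31.1 and 26.3 CPM in naive-type cells (log2 0.75 and 0.98). Dnajc2 itself had 121 and 122 CPM in cycling cells, against 72.0 and 72.3 CPM in naive-type cells, a ratio of 0.75 in each library. Both partners were called higher in cycling cells, and not under TMM scaling. Hspa14 shares 8264 bases on the same strand with the gene model Gm45902, and how reads of overlapping genes were assigned is not given in the sources used here.

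Of the other J-domain genes, Dnajc9 (chr14:20384638-20388910 on the - strand) had the largest ratio in cycling cells. It encodes a cochaperone that binds histones H3 and H4 and brings Hsp70 to them. Cycling cells had 230 CPM in the old recipient and 165 CPM in the young donor library, against 76.4 and 68.4 CPM in naive-type cells, a log2 ratio of 1.59 (1.37 to 1.80) and 1.27 (1.01 to 1.53). Gzmk cells had 146 and 148 CPM, a ratio of 0.93 and 1.11. Cells with Mki67 had been taken out of the Gzmk group, yet 2 of the 4 cycling markers tested were called higher there. Top2a had 19.7 and 14.4 CPM, against 3.66 and 2.86 CPM in naive-type cells, and Stmn1 had 22.3 and 21.2 CPM, against 7.62 and 5.91 CPM. Pcna, at log2 ratios of 0.22 and 0.49, and Mcm5, at 0.41 and 0.68, were not called. The part of any cycling cells left in the Gzmk group in the Dnajc9 level was not tested. The libraries differed for Dnajc9 within cycling cells by 0.48 (0.19 to 0.77). In cycling cells with at least 2 Gzmk UMIs (60 and 43 cells) it had 286 CPM in the old recipient and 168 CPM in the young donor library, and in those without it had 180 and 164 CPM. Top2a differed between the same cells, at 296 and 113 CPM with Gzmk and 348 and 520 CPM without, and its part was not tested. Dnajc8, a protein of spliceosomes, had 179 and 171 CPM in cycling and 167 and 158 CPM in Gzmk cells, against 92.4 and 97.2 CPM in naive-type cells. Dnajb6, which suppresses aggregation, had 141 and 124 CPM in Gzmk cells, against 81.7 and 75.5 CPM in naive-type cells, a ratio of 0.78 and 0.72. The abundant cochaperones of cytosolic Hsp70 differed less: Dnaja1 had 237 and 231 CPM in Gzmk cells, against 213 and 214 CPM in naive-type cells. Dnajb1, a heat-inducible one, had 94.7 and 101 CPM in Gzmk cells, against 76.8 and 71.6 CPM in naive-type cells.

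The remaining Gzmk calls rest on low counts or on models that share bases with a neighbour. Some Gzmk calls given above share bases too, on the other strand: Dnajc1 with Mllt10 over 16735 and Dnajb11 with Gm30505 over 4652. Dnajb13, known for its place in the sperm flagellum, had 8.27 and 16.8 CPM in Gzmk cells, against 3.27 and 4.83 CPM in naive-type cells; its model overlaps Ucp2 on the other strand over 305 bases. Dnajc14, of the ER membrane, had 46.2 and 46.5 CPM, against 29.8 and 28.8 CPM, and overlaps Sarnp over 2114 bases. Dnajb14, another ER membrane protein, had 4 and 18 UMIs in Gzmk cells, at 0.848 and 3.59 CPM, against 5.45 and 6.44 CPM in naive-type cells.

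Of the 8 mitochondrial members (Hspa9, Hspd1, Hspe1, Dnaja3, Dnajc11, Dnajc15, Dnajc19 and Dnajc30), only Dnajc15 was called lower in Gzmk cells, against 5.35% of all genes. Hspe1 (Hsp10), the lid of the mitochondrial chaperonin, had 320 and 354 CPM in Gzmk cells, against 465 and 474 CPM in naive-type cells, a log2 ratio of -0.54 (-0.62 to -0.46) and -0.42 (-0.51 to -0.33). Its partner Hspd1 (Hsp60) had 101 and 96.8 CPM in Gzmk cells, against 114 and 112 CPM in naive-type cells. Dnajc15 (MCJ, chr14:77820681-77875125 on the - strand), an inner membrane J-domain protein known in mouse CD8 T cells to restrain respiration, had 184 and 181 CPM in Gzmk cells, against 302 and 345 CPM in naive-type cells. Its ratio of -0.72 (-0.83 to -0.61) and -0.93 (-1.04 to -0.81) was past 1.5-fold in both libraries. Ly6c2 cells, at 362 and 357 CPM, were not below naive-type cells. Hspa9 (mortalin), the mitochondrial Hsp70, had 59.1 and 74.3 CPM in Gzmk cells, against 86.7 and 84.0 CPM in naive-type cells, and the libraries differed within Gzmk cells by -0.33 (-0.56 to -0.10). The 8 mitochondrial members summed to 831 and 873 CPM in Gzmk cells, against 1133 and 1162 CPM in naive-type cells (log2 -0.45 and -0.41), and to 1079 and 1129 CPM in cycling cells. Hspe1 and Dnajc15 carried that sum: the ratios of the other members lay between -0.55 (Hspa9) and 0.23 (Dnajc30) in the old recipient and between -0.22 (Hspd1) and 0.27 (Dnajc19) in the young donor library. None of 7 further genes of mitochondrial folding was called in any comparison.

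The window before Hspe1 is shown with that of Dnajb6 because both hold a full heat shock element, GAANNTTCNNGAA, searched on both strands. That motif was present in 153 windows (0.466%), in 139 genes (0.514%), and in 3 of the 68 members: Hspe1, Hspd1 and Dnajb6. The Hspe1 window is chr1:55087898-55088147 on the + strand, with 2 overlapping matches, 1 on each strand. RefSeq lists 2 start sites for Hspd1, and the window of the inner one overlaps that of Hspe1 from the opposite strand; by GENCODE M21 the Hspe1 window lies inside Hspd1. The window of Dnajb6, which has 2 start sites in the table, is chr5:29735648-29735897 on the + strand. The element is in capitals, and the values above differ in direction between these genes: Dnajb6 was higher and Hspe1 lower in Gzmk cells. The shorter pattern GAANNTTC was present in 7.73% of genes and in 13 of the 68 members, including Hspa1a, Hspa1b, Hspb1 and Dnaja1.
Hspe1: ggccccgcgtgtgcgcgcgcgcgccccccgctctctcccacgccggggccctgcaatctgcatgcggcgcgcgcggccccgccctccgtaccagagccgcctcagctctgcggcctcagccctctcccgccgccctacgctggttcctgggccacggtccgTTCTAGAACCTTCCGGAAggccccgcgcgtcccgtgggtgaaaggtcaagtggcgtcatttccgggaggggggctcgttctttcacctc
Dnajb6: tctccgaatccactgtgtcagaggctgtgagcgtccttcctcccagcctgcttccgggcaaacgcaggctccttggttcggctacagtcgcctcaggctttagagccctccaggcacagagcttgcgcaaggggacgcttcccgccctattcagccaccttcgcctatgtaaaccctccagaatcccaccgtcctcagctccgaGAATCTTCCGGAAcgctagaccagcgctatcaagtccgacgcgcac

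The CCT sum differed little between groups on total UMIs. Cycling cells had 1361 and 1341 CPM of CCT genes, Gzmk cells 1042 and 1112 CPM and Ly6c2 cells 1112 and 1124 CPM, against 1192 and 1186 CPM in naive-type cells. No subunit was called in any of these comparisons on total UMIs. On totals that leave out large gene families, Cct4 was called lower in Gzmk cells. With Cct6b left aside for its few UMIs, Tcp1 had the largest ratio of cycling over naive-type cells among the subunits, with 220 and 209 CPM, against 138 and 148 CPM in naive-type cells. Cct5 had 233 and 221 CPM in cycling cells, against 194 and 195 CPM in naive-type cells. In Gzmk cells Cct4 was at 146 and 147 CPM, Cct2 at 192 and 195 CPM and Cct5 at 162 and 168 CPM, each below the naive-type level of the same library (174 and 177, 228 and 209, and 194 and 195 CPM). The remaining subunits Cct3, Cct7 and Cct8 lay between 91.3 and 179 CPM in Gzmk cells, against 107 and 196 CPM as their extremes in naive-type cells. Cct6b had 74 UMIs and Cct8l1 had 1. Tcp1 shares 645 bases with Mrpl18 and 1255 with Acat3. The ring's ratio in cycling cells, 0.19 and 0.18, turned negative under TMM scaling. In Gzmk cells the ring's ratio was -0.19 and -0.09, where the median gene was 0.31 higher in both libraries. Under TMM scaling the Gzmk ratio was lower still. None of 11 prefoldin and chaperonin helper genes, which pass actin and tubulin to the ring, was called in any comparison.

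**Figure D3:**
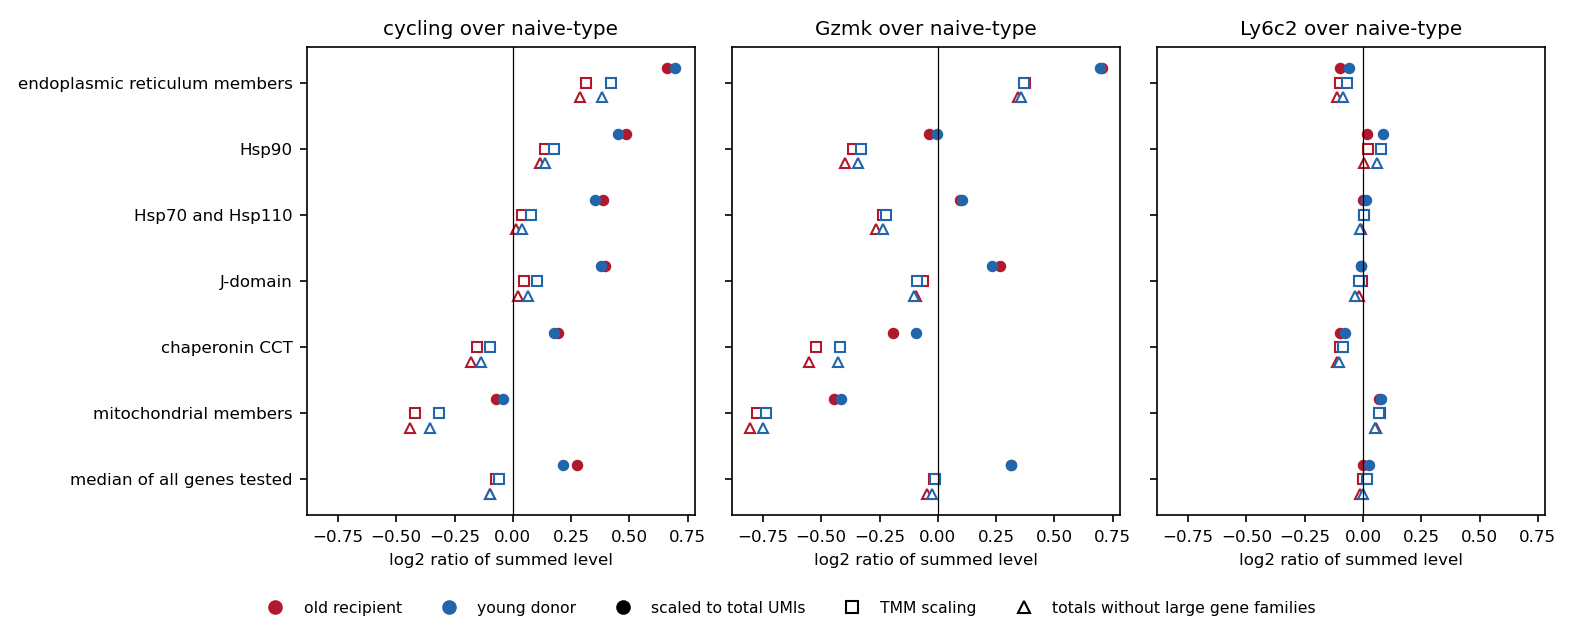
Log2 ratio of summed levels for 6 sets of chaperone genes, and the median of all genes tested, in the old recipient (red) and young donor (blue) libraries, in 3 comparisons and under 3 scalings (total UMIs, TMM, and totals without ribosomal protein, mitochondrial, receptor segment and MHC class I genes). The ER set stays above 0 in Gzmk and cycling cells under each scaling, while the J-domain and Hsp70 sets lie above 0 in Gzmk cells on total UMIs only.

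Ly6c2 cells were close to naive-type cells in nearly all members. The exception was Hspb11 (IFT25), which despite its name is a part of the intraflagellar transport machinery. It had 20.6 and 17.1 CPM in Ly6c2 cells and 23.7 and 24.2 CPM in Gzmk cells, against 38.2 and 34.0 CPM in naive-type cells. The Ly6c2 ratio was -0.89 and -0.99 in the old recipient and young donor libraries. Over all 59 members compared, the ratios of the libraries differed by a median of 0.12 on the log2 scale, against 0.16 for Gzmk and 0.23 for cycling cells, where fewer UMIs were counted.

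The library contrast was small. A member was called between libraries when past 1.2-fold. Over all cells, 8 of 66 members were called higher in old recipient cells, against 12.2% of all genes, and 4 were called lower, against 8.78%. The median member lay at 0.02 and the median gene at 0.03. The Hsp90 sum was 1717 CPM in old recipient and 1838 CPM in young donor cells, a log2 ratio of -0.10 (-0.11 to -0.08), and the ER sum was 588 and 539 CPM, a ratio of 0.12 (0.10 to 0.15). The CCT sum was 1135 CPM in each. Ly6c2 cells made up 40.0% of old recipient and 67.3% of young donor cells, and naive-type cells 26.5% and 10.1%, so sums over all cells also carry these shares.

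Hspa4l was higher in old recipient cells, at 7.78 CPM, against 5.59 CPM in young donor cells (0.48, 0.24 to 0.71). It was called in naive-type and Ly6c2 cells, and its ratio was 0.07 in Gzmk cells. Hspb11, at 27.3 and 20.2 CPM (0.44, 0.32 to 0.56), fell short of the call at 0.20 when both libraries were given equal shares of the cell groups. Dnajc9, at 86.9 and 71.5 CPM (0.28), did so at 0.17. Dnajb5, a cytosolic Hsp40 protein, was at 5.32 and 4.16 CPM (0.36). The others called higher had 169 or fewer UMIs in all (Hspb6, Dnajc28, Cct6b and Hspa1b).

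Among the members lower in old recipient cells, Dnajb13 had 4.79 CPM, against 7.88 CPM in young donor cells (-0.72, -0.97 to -0.47). It was called lower in Gzmk, Ly6c2 and naive-type cells, and in cycling cells it had fewer than the 50 UMIs that a call needs. Dnaja4, a cytosolic J-domain protein, had 5.19 and 7.24 CPM (-0.48). The others were Hspb1 and Hspa1a, at 11 and 13 UMIs in old recipient and 43 and 40 UMIs in young donor cells. By share of cells Hspa1a went the other way, with a UMI in 12 old recipient cells (0.225%) and 14 young donor cells (0.188%). Its reads cannot be divided with confidence from those of Hspa1b, which was called higher. The abundant genes differed less: Hsp90ab1 was at 1368 and 1488 CPM (-0.12), Hspe1 at 450 and 488 CPM (-0.12) and Hspbp1 at 65.3 and 76.6 CPM (-0.23).

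Within cell groups the counts were as small. In cycling cells 7 of 37 members were called higher in the old recipient library, against 25.5% of all genes, and 3 lower, against 13.1%. With TMM scaling these were 4 higher and 6 lower, and the share of all genes was not computed for that setting. In Gzmk cells 2 of 56 were higher (Dnajc1 and Hspa13), against 12.9%, and 6 lower, against 9.9%. Without common Trbv segments these were 5 higher and 3 lower, again with no share of all genes computed. The 6 lower over all Gzmk cells included Hspa9, and Tcp1, which had 135 CPM in old recipient and 163 CPM in young donor Gzmk cells (-0.28, -0.43 to -0.13). In Ly6c2 cells 5 of 61 were higher, against 9.4%, and 2 lower, against 8.78%. In naive-type cells 5 of 58 were higher, against 13%, and 4 lower, against 9.1%.

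**Figure D4:**
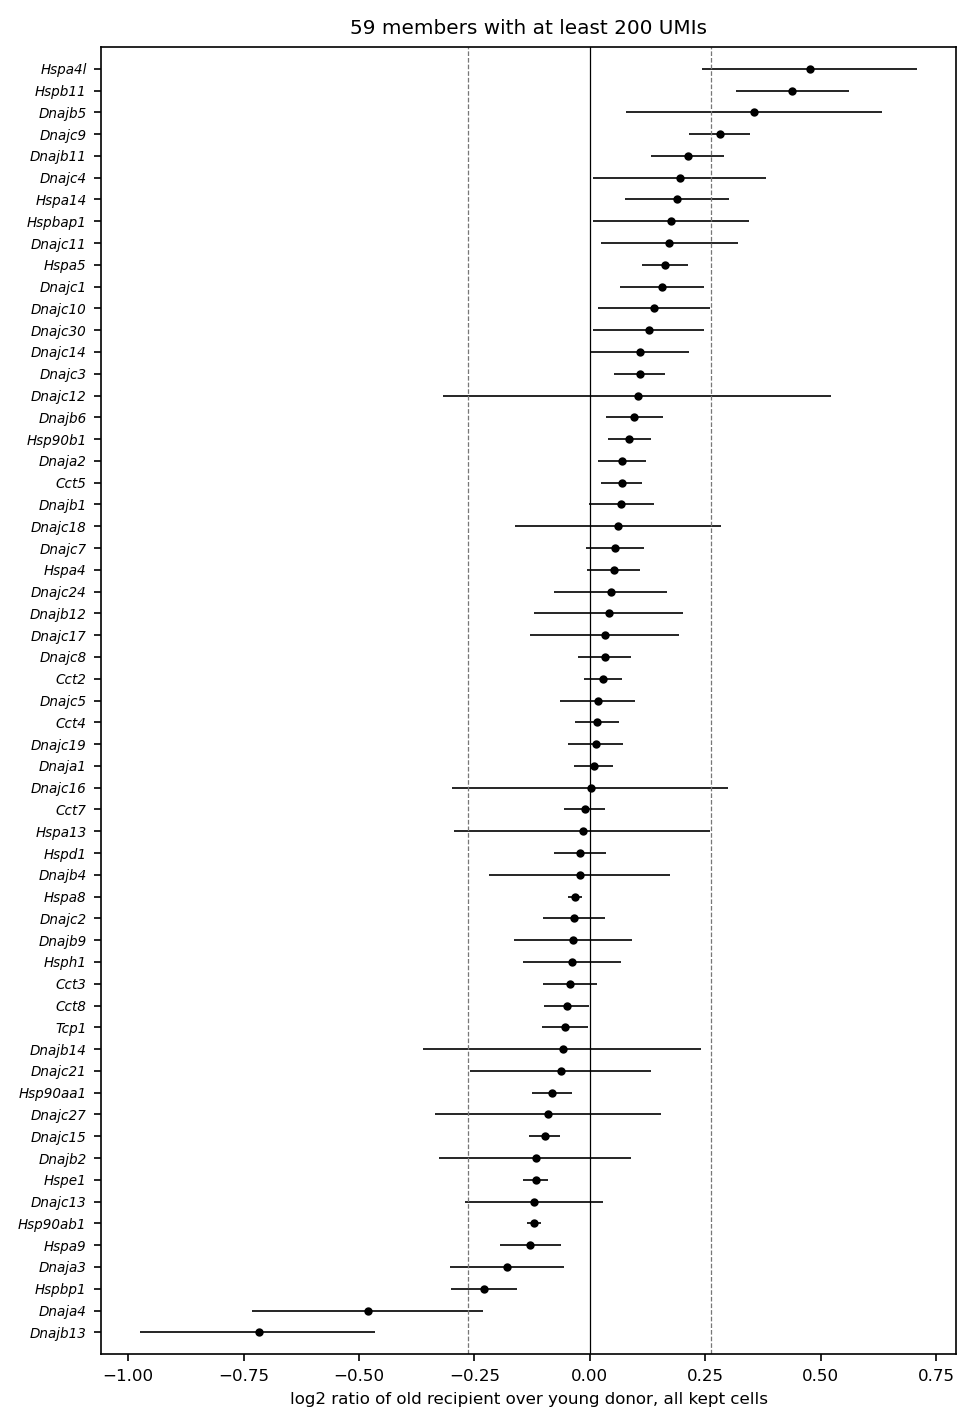
Log2 ratio of CPM in old recipient over young donor cells, all cells, for the 59 members with at least 200 UMIs, with 95% intervals for counting error. Dashed lines mark 1.2-fold; Hspa4l and Hspb11 lie highest and Dnajb13 and Dnaja4 lowest, and most members lie between the lines.

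The strictly heat-inducible genes were close to the limit of detection. Hspa1a and Hspa1b, near-identical copies of the inducible Hsp70 gene whose reads cannot be divided with confidence, had 13 and 32 UMIs in old recipient and 40 and 39 in young donor cells. After each cell was thinned to 3500 UMIs, 25 of 4850 old recipient cells (0.515%, exact interval 0.334% to 0.760%) had a UMI of either gene, against 20 of 6996 young donor cells (0.286%, 0.175% to 0.441%). Without thinning the shares were 0.655% and 0.537%. In Gzmk cells 8 of 789 old recipient cells had such a UMI, against 1 of 835 young donor cells. In naive-type cells it was 4 of 1352 old recipient cells and 0 of 728 young donor cells, where 3 counts, the limit that a count of 0 allows, would be a share of cells with a UMI of 0.412% (upper exact bound 0.505%). Thinning left out 491 old recipient and 455 young donor cells. No sorted cell type was present that should lack these transcripts, so the share given by free RNA was not measured.

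Cells with a thinned UMI of Hspa1a or Hspa1b were compared with the other cells over all members, and Hsp90ab1 is given because it was higher in both libraries, a choice made after its values were seen. The level was 1760 CPM in those old recipient cells and 1315 CPM in the other old recipient cells (log2 0.42, 0.18 to 0.65). In the young donor library it was 1929 and 1449 CPM (0.41, 0.16 to 0.66). Hsp90aa1 was higher in such cells of the old recipient library (1.14, 0.62 to 1.62) and not resolved in the young donor library (0.05, -0.82 to 0.80). Other members did not match between libraries: Dnaja1 was at 0.77 in the old recipient and -0.13 in the young donor library, Hsph1 had a ratio of 1.67 (9 UMIs) in the old recipient and 0 UMIs in the young donor library, and Hspe1 was lower in the old recipient library (-0.68, -1.32 to -0.10). The sum of the immediate early genes, which respond to handling, had a ratio of -0.04 and 0.10 between the same cells, with intervals that spanned 0, although 1 of them, Ier2, was at 0.69 (0.11 to 1.22) in the young donor library. Over all cells these immediate early genes summed to 1464 CPM in old recipient and 1285 CPM in young donor cells, and 5 of 13 were called higher in old recipient cells (Fos, Egr1, Egr2, Egr3 and Btg2), against 12.2% of all genes; their part in the library contrast was not tested.

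Of the heat shock factors and cytosolic cochaperones, 3 of 27 were called higher in Gzmk cells (Bag3, St13 and Ahsa2), a smaller share than the 19.6% of all genes, and none lower. Bag3, a heat-inducible exchange factor of Hsp70, had 16.5 and 15.6 CPM in Gzmk cells, against 3.37 and 6.27 CPM in naive-type cells. In cycling cells 2 of 25 were called higher, against 16% of all genes: Aarsd1 and Pih1d1, an adaptor of Hsp90, which had 58.1 and 65.1 CPM, against 26.7 and 29.2 CPM in naive-type cells. None of 29 was called in Ly6c2 cells. Hsf1, the heat shock factor gene itself, had 43.2 and 48.1 CPM in Gzmk cells, against 44.5 and 39.2 CPM in naive-type cells.

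Some values of other cell types moved with the groups. The myeloid list summed to 26.5 and 34.9 CPM in Gzmk cells, against 1.78 and 1.97 CPM in naive-type cells. Cd68 made up 25.2 and 26.0 CPM of the Gzmk values, and Lyz2 0.424 and 7.79 CPM. The NK list, carried by Eomes, which memory CD8 T cells also express, summed to 284 and 267 CPM in Gzmk cells, against 14.1 and 12.2 CPM in naive-type cells, with Ncr1 at 0. B cell markers summed to 8.48 and 7.39 CPM in Gzmk cells, against 30.1 and 33.1 CPM in naive-type cells. The part of these, and of the lower depth of Gzmk cells, in the chaperone ratios was not tested. Gzmk cells often share a receptor beta segment; without those using the top 3 Trbv segments of either library, 494 of 986 and 503 of 1065 cells were left, and 9 of 53 members were then called higher, against 17.2% of all genes, with Dnajc1 and Dnajc14 no longer among them. With no doublets removed, Dnajb11 and Dnajc15 lost their call in Gzmk cells.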

How the data were processed

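The data are 2 single-cell libraries (10x 5′ chemistry) of sorted splenic CD8 T cells. The deposited files hold raw UMI counts per gene and barcode, made with software version 3.0.2 per the file headers; mm10, Cell Ranger and Seurat are named in the submitters' processing notes, and the counting settings are not given in the sources used here. The libraries held 6174 (old recipient) and 8588 (young donor) barcodes, with 41504941 and 65006187 UMIs.

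Cells with at least 500 genes and at most 10% mitochondrial UMIs were used, which left out 555 and 587. Doublets were scored against simulated doublets (30 components, 50 neighbours), and 278 and 550 were removed. Counts were summed over the cells of a group and scaled by all UMIs of that group; 1 UMI was worth 0.0265 and 0.0173 CPM. Poisson intervals and intervals of ratios (conditional on the sum) are exact, at 95%. A call means past 1.2-fold between libraries, or past 1.5-fold the same way in both libraries between cell groups, with at least 50 UMIs. Genes are named by fixed rules: the highest levels, the highest and lowest ratios, all chaperonin, Hsp90 and Hsp70 genes with enough UMIs, and inducible genes; others named were called. Members and lists, and later the ER and mitochondrial subsets, were chosen with earlier results of these data known. Alternatives covered filters, scaling, thresholds and cell groups. Some marker genes used are not reported here. The calculations were checked on simulated data. Software was Python 3.11.15 with numpy 2.4.6, scipy 1.17.1, pandas 2.3.3 and scikit-learn 1.9.0, and edgeR 4.0.16 in R 4.3.3 for TMM factors only. Of 31053 features, 30934 matched GENCODE M21 by identifier.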

Additional observations from a re-analysis of the deposited data

How the results depend on the processing

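Of 495 values recomputed under alternatives, 383 stayed within the main counting interval or within 1.5 times the main count, and 103 moved further. The other 9 changed sign where the main interval excluded 0. Changes of sign where it spanned 0 are not among the 9. The cause was not tested. No paired analysis was possible because each group is 1 library and no replicate numbers are shared. The settings without shared barcodes, without common Trbv segments and with cycling cells of 0 or 1 Gzmk UMI were chosen after seeing the data. For calls between libraries under alternative settings the share of all genes was not computed, so those counts have no background.

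With TMM scaling, members called in old recipient over young donor cells were 4 higher and 6 lower in cycling cells and 3 higher in naive-type cells. Over naive-type cells they were 3 higher and 4 lower in cycling cells (8.02% and 9.96% of all genes), and 5 higher and 6 lower in Gzmk cells (9.19% and 10.4%). Family ratios for the library contrast, cycling and Gzmk cells became -0.06, 0.06 and -0.23 for Hsp70, -0.14, 0.16 and -0.35 for Hsp90, -0.14, -0.51 and -0.75 for Hspd1 with Hspe1, -0.02, 0.08 and -0.08 for J-domain genes, and -0.05, -0.13 and -0.47 for CCT. Small Hsp genes were at -0.59 in cycling and -1.29 in Gzmk cells.

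With totals that leave out large gene families, 5 members were lower in old recipient cycling cells and 3 higher in naive-type cells. Over naive-type cells, 3 were higher and 5 lower in cycling cells (7.45% and 10.9% of all genes), and 4 higher and 7 lower in Gzmk cells (8.93% and 10.9%). The family ratios, in the same order, were -0.04, 0.03 and -0.25 for Hsp70, -0.12, 0.13 and -0.37 for Hsp90, -0.12, -0.54 and -0.77 for Hspd1 with Hspe1, 0.00, 0.04 and -0.10 for J-domain genes, and -0.03, -0.16 and -0.49 for CCT. Small Hsp genes were at -0.62 in cycling and -1.31 in Gzmk cells. The signs that turned under these scalings were those of Hsp70 in Gzmk cells, J-domain genes in Gzmk cells and CCT in cycling cells, and of J-domain genes between libraries under TMM.

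With at least 20 UMIs the library calls were 12 higher and 6 lower in cycling cells and 8 higher and 4 lower in Ly6c2 cells. Over naive-type cells 1 was then lower in cycling cells (4.99% of all genes), and 1 was higher and 2 lower in Ly6c2 cells (5.23% and 2.66%). With at least 200 UMIs the library calls were 4 higher and 2 lower over all cells, 3 and 1 in cycling, 1 and 2 in Gzmk, 3 and 1 in Ly6c2, and 3 and 0 in naive-type cells. At a fold of 1.5 between libraries, 0 members were higher over all cells, 0 higher and 0 lower in cycling and in naive-type cells, 0 higher and 3 lower in Gzmk cells, and 1 higher and 1 lower in Ly6c2 cells. Between cell groups, a fold of 1.2 gave 19 higher and 5 lower in cycling (35.6% and 10.4% of all genes), 21 and 6 in Gzmk (3800 of 8430 genes higher, and 10.3% lower), and 2 and 3 in Ly6c2 cells (11.4% and 6.53%). A fold of 2 gave 3 higher in cycling cells (6.54% of all genes), 2 higher and 1 lower in Gzmk cells (8.09% and 2.74%), and 0 lower in Ly6c2 cells (0.742%).

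With no doublets removed, 5 members were lower in old recipient cycling cells, and small Hsp genes were at -0.76 in Gzmk cells. With groups drawn from thinned cells, 5 were lower in old recipient cycling cells and 3 higher in naive-type cells. With the same groups 1 was lower in cycling (5.08% of all genes) and 1 higher in Ly6c2 (4.43%) over naive-type cells, and Hspd1 with Hspe1 was at -0.39 in cycling cells. Requiring 2 Mki67 UMIs gave ratios of 0.50 for Hsp70, 0.70 for Hsp90 and 0.46 for J-domain genes. A stricter naive-type group gave 1 lower in cycling (3.91% of all genes) and 1 higher in Ly6c2 cells (4.66%). Without common Trbv segments, 5 members were higher and 3 lower in old recipient Gzmk cells. In cycling cells with 0 or 1 Gzmk UMI, 1 member was lower than in naive-type cells, against 3.78% of all genes.

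The share of cells with a UMI, in percentage points as old recipient minus young donor, was -1.13 for Hsp90aa1, -1.84 for Hspe1, 0.90 for Hspd1, -1.37 for Hspa8 and 0.06 for Dnaja1 when cells were thinned to 1000 UMIs. With no thinning it was -1.47 for Dnajb1, -2.87 for Hsph1, -0.33 for Hspb1, -5.88 for Hsp90aa1, -5.38 for Hspd1, -1.67 for Dnaja1 and 0.33 for Hspa5. Hspd1 was at -0.84 with no doublets removed and -0.85 with at most 5% mitochondrial UMIs; at 3500 UMIs it was at -2.99, Dnaja1 at 2.49 and Dnajb1 at 1.13, so the signs of these 3 genes depend on the depth compared. A gene with 0 UMIs over all cells allows up to 0.0794 CPM in old recipient and 0.0520 CPM in young donor cells, counting error only. Ratios in cycling cells rest on 107 and 108 cells, fewer than in any other group described.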

Other observations

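Cycling cells were kept out of the Gzmk group, and 60 of 107 old recipient and 43 of 108 young donor cycling cells had at least 2 Gzmk UMIs. The genes given here were chosen after their values in Gzmk cells were seen. Hspbp1, the Hsp70 exchange factor, had 18.5 CPM (9 UMIs) in old recipient cycling cells with Gzmk and 71.5 CPM (39 UMIs) in those without. In the young donor library it had 27.4 CPM (7 UMIs) with Gzmk and 73.4 CPM (59 UMIs) without. Dnajc15, the inner mitochondrial membrane protein, had 234 CPM with and 359 CPM without Gzmk in old recipient cycling cells, and 180 CPM with and 405 CPM without in young donor ones. Hspe1 had 251 CPM with and 475 CPM without in the old recipient library, and 317 CPM with and 413 CPM without in the young donor library. In these cells, which the comparison of Gzmk with naive-type cells did not use, each of the 3 genes was lower where Gzmk was counted, in both libraries. The cycling marker Top2a was lower there too, at 296 CPM with and 348 CPM without Gzmk in the old recipient library. In the young donor library it was at 113 CPM with and 520 CPM without. The part of this difference in the 3 genes was not tested, and the share of all genes was not computed for this split.

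Hsp90aa1, which was not lower in Gzmk than in naive-type cells, had 337 CPM with and 387 CPM without Gzmk in old recipient cycling cells and 258 CPM with and 385 CPM without in young donor ones. Dnajb11 was the cycling call that was lost in cells with 0 or 1 Gzmk UMI, where its log2 ratio over naive-type cells was 0.58 in the old recipient and 1.10 in the young donor library.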
